A study of Mus musculus with 8 samples.

Results

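Cardiopharyngeal mesoderm is the embryonic field that gives rise to the second heart field, which builds the outflow tract and right ventricle, and to the muscles of the face and throat. The transcription factors examined here mark or pattern that field, and Tbx1 is known as one of its regulators. The set was a list of 8 genes taken by name, namely Isl1, Six2, Eya1, Tcf21, Msc, Lhx2, Foxc1 and Foxc2, and all 8 were present among the 55487 genes of the deposited count table. Of the 8, 7 passed the filter on low counts and were among the 13280 genes tested, whereas Msc did not pass.

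The LIM homeodomain protein Isl1 is the classic marker of second heart field progenitors, and Lhx2 is a related LIM homeodomain factor of the head and pharyngeal mesoderm. Six2 is a homeodomain protein and Eya1 the phosphatase and co-activator with which Six2 and its relatives act. Foxc1 and Foxc2 are closely related forkhead factors of mesoderm and its mesenchyme. Tcf21 (capsulin) and Msc (musculin) are related basic helix-loop-helix (bHLH) factors of the branchiomeric muscle precursors, and Tcf21 also marks epicardial progenitors.

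RNA came from mouse E14-Tg2a embryonic stem cells on day 6 of a serum-free differentiation towards precardiac mesoderm. The parental line (genotype WT) and line 4D (genotype Tbx1-/-) were each represented by 4 libraries, and the labels name no drug treatment for either. QuantSeq, which sequences the 3′ end of polyadenylated transcripts, gave 3803561 to 6293907 counts per library. All mutant libraries came from the single line 4D, so genotype and line cannot be told apart. The labels call the samples biological replicates without saying how the cultures were separated, and p-values measure the spread between these libraries.

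The mutated gene and the state of the cultures were checked first. Tbx1 had 22 to 65 counts per parental library against 0 to 3 per mutant library, and the altered part of the gene is not given in the labels, so a 3′ count need not report on it. Levels below are CPM, counts scaled to a common library size by the factors of edgeR's trimmed mean of M values (TMM). Precardiac mesoderm markers were present in both lines, with a summed level of 1534 to 2010 CPM (parental) against 1618 to 1936 CPM (mutant), and 1 of 12 was called higher (edgeR adjusted p under 0.05). Summed erythroid markers ranged from 133 to 187 CPM in the parental line and from 700.1 to 1008 CPM in the mutant line, without overlap, with 6 of 11 called higher. Fibroblast and smooth muscle markers summed to 1132 to 2517 and 2376 to 2936 CPM, with 4 of 13 called higher. Endoderm markers summed to 280.4 to 487 and 265 to 314 CPM, with 2 of 13 called lower. Tested were 13 of 16 listed cardiomyocyte markers, 11 of 12 endothelial, 8 of 13 neural and neural crest and 7 of 10 pluripotency markers. None of these was called by edgeR, DESeq2 or limma-voom, with 8, 0, 1 and 1 at an unadjusted p under 0.05 (edgeR). Over all tested genes that share was 11.9%. Cardiomyocyte markers summed to 679 to 3966 CPM in the parental and 133 to 1074 CPM in the mutant line, with overlap. Mutant library 4 stood apart, at 110 on the first principal component against -25.2 to -4.61 for the other 7. It had the lowest cardiomyocyte sum at 133 CPM, against 679 to 3966 CPM elsewhere, and the lowest total, 3803561 counts. The part of these differences in the results on the 8 factors was not tested.

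Promoter sequence is shown first for 3 factors whose mutant libraries all lay below the parental ones (Isl1, Six2, Foxc1) and for the 1 factor whose mutant libraries all lay above (Lhx2). The windows are the 250 bases before the RefSeq start on build GRCm38.p6, written 5′ to 3′ on the strand of the gene. They lie at chr13:116309689-116309938 (Isl1, minus strand), chr17:85688255-85688504 (Six2, minus), chr13:31806396-31806645 (Foxc1, plus) and chr2:38339031-38339280 (Lhx2, plus, the first of 2 listed starts). Capitals mark matches to the CCAAT box (CCAAT or ATTGG) and to the GATA motif (AGATAA or TTATCT).
Isl1: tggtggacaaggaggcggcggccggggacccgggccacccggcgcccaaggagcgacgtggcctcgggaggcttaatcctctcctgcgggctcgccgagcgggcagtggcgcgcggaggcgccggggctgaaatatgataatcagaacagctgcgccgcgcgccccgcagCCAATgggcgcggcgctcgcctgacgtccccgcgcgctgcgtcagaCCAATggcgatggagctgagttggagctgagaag
Six2: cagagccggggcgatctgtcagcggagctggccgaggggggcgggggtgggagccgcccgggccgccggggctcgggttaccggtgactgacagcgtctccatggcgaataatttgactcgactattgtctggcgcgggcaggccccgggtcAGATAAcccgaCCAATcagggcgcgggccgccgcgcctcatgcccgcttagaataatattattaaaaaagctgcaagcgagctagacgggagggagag
Foxc1: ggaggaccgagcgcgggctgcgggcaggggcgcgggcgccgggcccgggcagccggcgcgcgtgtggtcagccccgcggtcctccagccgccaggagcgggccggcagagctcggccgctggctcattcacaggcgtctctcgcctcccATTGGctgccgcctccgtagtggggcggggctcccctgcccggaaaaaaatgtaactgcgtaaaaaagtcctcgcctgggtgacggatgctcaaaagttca
Lhx2: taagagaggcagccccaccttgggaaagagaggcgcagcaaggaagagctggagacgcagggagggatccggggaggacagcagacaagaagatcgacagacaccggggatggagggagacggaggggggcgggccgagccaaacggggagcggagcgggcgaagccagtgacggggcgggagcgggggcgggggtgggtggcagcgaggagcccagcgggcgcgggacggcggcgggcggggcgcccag
The Isl1 window held CCAAT at bases 171 to 175 and 217 to 221, Six2 at 164 to 168 and Foxc1 on the opposite strand at 150 to 154, while neither Lhx2 window held it. A CCAAT match was present in 33.8% of all 32851 promoter windows, so its presence in 3 of the 6 member windows is a description only. The GATA letters matched in Six2 (bases 153 to 158) and Tcf21 (220 to 225), and in 9.99% of all windows. Only these letters were searched, so variants such as TGATAA, which the Isl1 window holds, were neither marked nor counted. The T-box half-site GGTGTGA (or TCACACC), the forkhead motif GTAAACA (or TGTTTAC) and the homeodomain motif TAATTA, its own reverse complement, had no match in the 6 windows. Their shares over all windows were 3.33%, 3.17% and 4.84%. The E-box CANNTG, which reads the same on both strands, matched once in Isl1 and in 66.2% of all windows. Windows were found for 5 of the 8 genes and not used for Eya1, Msc and Foxc2. GC content was 71.2% in the Isl1 window, 64.8% in Six2, 70.8% in Foxc1 and 72.8% in the first Lhx2 window.

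Within the set, Lhx2 RNA rose and Foxc1 RNA fell in the mutant line, and these 2 of 7 tested factors passed the threshold of an adjusted p under 0.05 (edgeR quasi-likelihood test). Over all 13280 genes 1.42% passed, 0.745% higher and 0.67% lower. Isl1, Six2 and Foxc2 were lower in every mutant library than in any parental library without passing. Counting genes whose lines did not overlap, 5 of the 7 tested factors did so (4 lower and 1 higher), against 7.52% of all tested genes. An unadjusted p under 0.05 was found for 5 of the 7, against 11.9% of all tested genes. The median log2 fold change was -0.67 over the 7 factors and 0.00100 over all tested genes, and the median absolute value was 1.05 against 0.24. The factors were chosen with earlier results of these data known, so these contrasts with all tested genes are a description only. In bulk RNA, fewer cells of a type and less RNA per cell cannot be told apart.

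**Figure D1:**
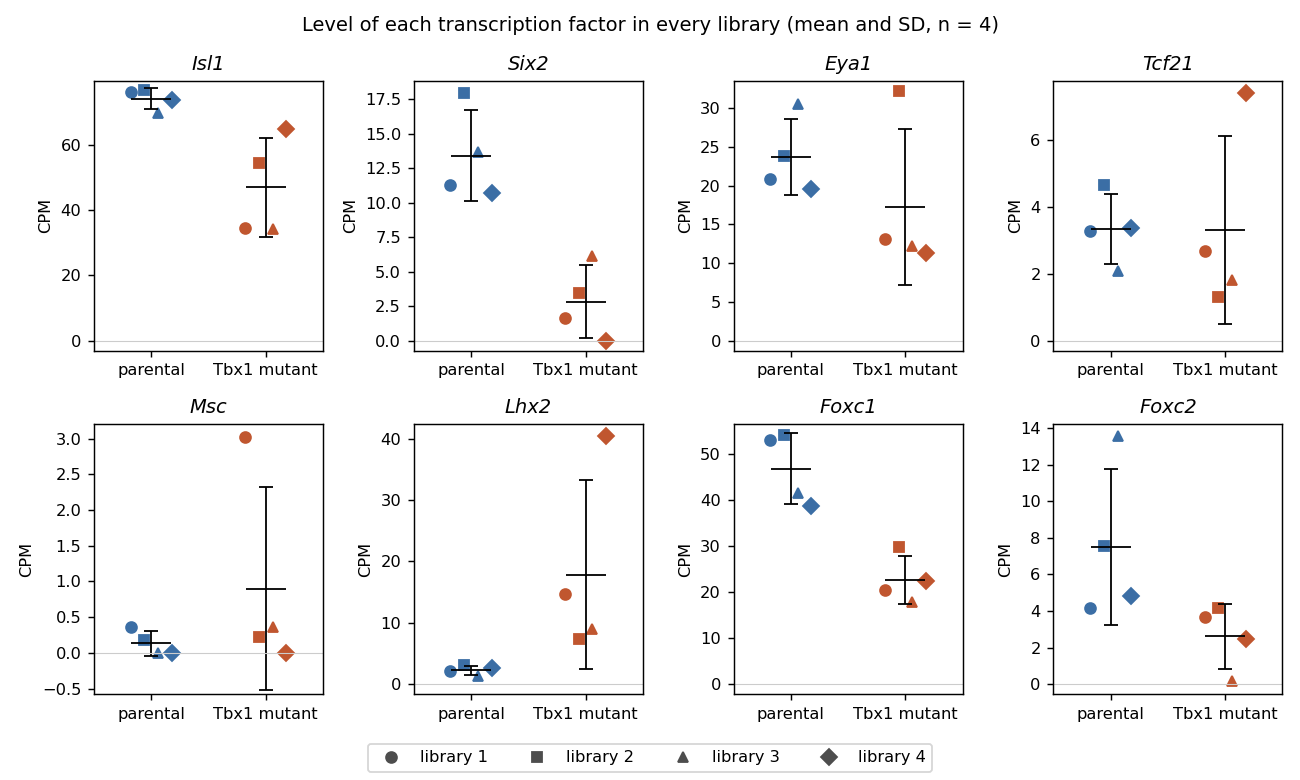
Level in CPM (vertical axes, each panel on its own linear scale) of the 8 transcription factors in parental and Tbx1 mutant libraries; points are libraries, with 1 marker shape per library number, and bars are the mean and SD of 4. Mutant points lie below all parental points for Isl1, Six2, Foxc1 and Foxc2 and above them for Lhx2, while Eya1, Tcf21 and Msc overlap.

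Isl1 (ENSMUSG00000042258.13, chromosome 13, 116298281 to 116309689, minus strand) was at a nearly constant level in the parental line. Its parental values were 76.2, 76.8, 69.7 and 73.7 CPM in libraries 1 to 4, and its mutant values were 34.6, 54.5, 34.1 and 64.9 CPM. Every mutant library was below every parental library, with mutant libraries 4 and 2 nearer to the parental range and mutant libraries 1 and 3 farther below it. The parental coefficient of variation (CV, SD over mean) was 4.32%, about the 4.95% that counting error alone gives for its mean of 408.5 counts. Of the 1325 tested genes with a mean level within 1.25-fold of that of Isl1, 3.02% had a lower parental CV. In the mutant line the CV was 32.4%, above that of 92.98% of those genes, and counting error accounts for 6.74%. The log2 fold change was -0.67 ± 0.19 (SE; 95% interval -1.07 to -0.26) and did not pass (edgeR adjusted p = 0.108). Leaving out mutant library 4 gave -0.86 and an edgeR adjusted p of 0.0173. This was the only 1 of 8 fits with 1 library left out that passed, and the edgeR adjusted p reached 0.286 in the others. The call was also made with DESeq2 (0.0441) and limma-voom (0.0303).

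Lhx2 (ENSMUSG00000000247.11, chromosome 2, 38339281 to 38369733, plus strand) rose in the mutant line, whereas the estimate of its relative Isl1 was negative. Parental libraries 1 to 4 had 2.18, 3.05, 1.28 and 2.53 CPM, from 8 to 17 counts. Mutant libraries had 14.6, 7.41, 8.90 and 40.4 CPM, from 34 to 147 counts. Each mutant library was above all parental libraries, and mutant library 4 was far above the other 3 mutant libraries. The log2 fold change was 2.96 ± 0.54 (95% interval 1.84 to 4.09; edgeR adjusted p = 0.00612), the 11th most positive of all tested genes. Leaving out mutant library 4 lowered it to 2.19 with an edgeR adjusted p of 0.0275, and the mutant mean changed from 17.8 to 10.3 CPM. Limma-voom did not make the call (adjusted p = 0.104).

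In the ratio of Isl1 to Lhx2 within a library the scaling of that library nearly cancels. On the log2 scale of (CPM + 1) it was between 4.26 and 4.96 in the 4 parental libraries. In mutant libraries 1 to 4 it was 1.19, 2.72, 1.83 and 0.67, so the lines were far apart. The difference was -2.95, with SDs of 0.30 and 0.88 (n = 4 per line). Its two-sided exact permutation p was 0.0286, the smallest that 4 against 4 libraries allow, and 0.114 after adjustment over the 4 pairs tested, of which 3 are reported. Every mutant library was already below the parental ones for Isl1 and above them for Lhx2. The separation of the ratio and its p therefore follow from the values of the single genes and add no further evidence.

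Foxc1 (ENSMUSG00000050295.4, chromosome 13, 31806633 to 31812476, plus strand) fell in every mutant library. Parental libraries 1 to 4 had 52.9, 54.0, 41.5 and 38.8 CPM, and mutant libraries 20.5, 29.9, 17.8 and 22.3 CPM. The highest mutant library, at 29.9 CPM, was below the lowest parental library, at 38.8 CPM. Means were 46.8 ± 7.79 and 22.6 ± 5.17 CPM (SD, n = 4), with a log2 fold change of -1.05 ± 0.21 (95% interval -1.49 to -0.61; edgeR adjusted p = 0.0124). In contrast to Isl1 and Lhx2, leaving out mutant library 4 hardly moved the estimate, to -1.05. The call was lost without parental library 2 (edgeR adjusted p = 0.0727) and without mutant library 3 (0.0533).

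Foxc2 (ENSMUSG00000046714.7, chromosome 8, 121116171 to 121118895, plus strand), the closest relative of Foxc1, was measured at lower counts. Its parental values were 4.18, 7.53, 13.6 and 4.85 CPM, and its mutant values 3.70, 4.14, 0.18 and 2.47 CPM. The lines did not overlap, but mutant library 2 and parental library 1 were nearly equal. The log2 fold change of -1.52 ± 0.68 (95% interval -2.95 to -0.093) did not pass (edgeR adjusted p = 0.379). The log2 ratio of Foxc1 to Foxc2 averaged 2.59 ± 0.77 for parental and 2.88 ± 0.78 for mutant cells (SD, n = 4). This difference of 0.28 was within the spread (exact permutation p = 0.657, also after adjustment over the 4 pairs), so an unequal change of the 2 paralogs was not detectable with these libraries.

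**Figure D2:**
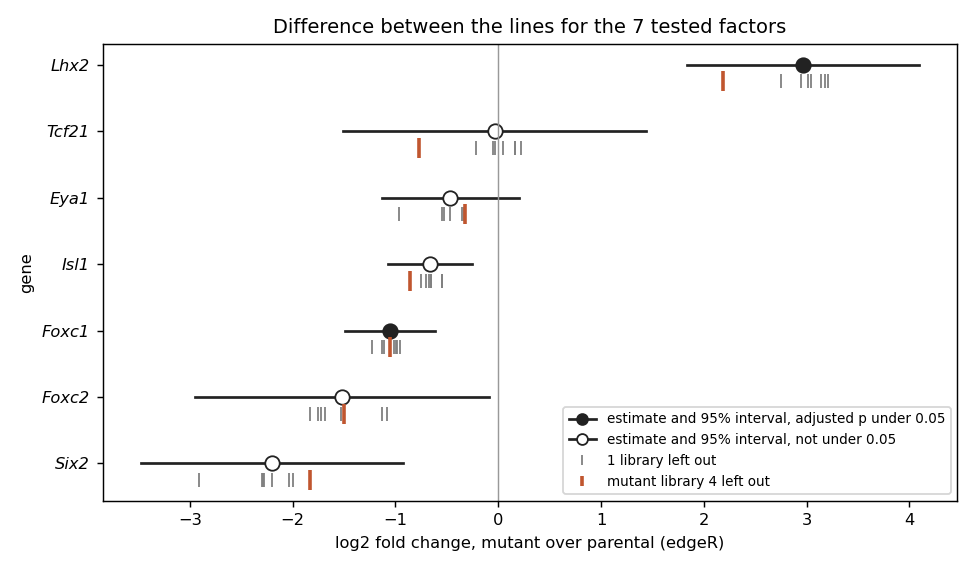
Log2 fold change of mutant over parental (horizontal axis) for the 7 tested factors, with 95% intervals; filled circles have an edgeR adjusted p under 0.05, grey ticks are estimates with 1 library left out and orange ticks those without mutant library 4. Without that library Lhx2 moves from 2.96 to 2.19 and Isl1 from -0.67 to -0.86, while Foxc1 stays at -1.05.

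Six2 (ENSMUSG00000024134.11, chromosome 17, 85684277 to 85688274, minus strand) had the most negative estimate of the set. Parental libraries 1 to 4 had 11.3, 17.9, 13.7 and 10.7 CPM, from 51 to 100 counts. Mutant libraries had 1.68, 3.49 and 6.18 CPM in libraries 1 to 3, and 0 counts in library 4, where the floor of 3 counts corresponds to 0.82 CPM. The lines did not overlap, and the mutant libraries differed widely among themselves. Their CV was 93.2%, higher than in 98.5% of the 1153 genes of similar level. The log2 fold change of -2.20 ± 0.61 (95% interval -3.47 to -0.92) was the 14th most negative of all tested genes, but it did not pass (edgeR adjusted p = 0.0867). It passed without mutant library 4 (-1.83, edgeR adjusted p = 0.0389), without mutant library 3 (-2.91, 0.0474) and with DESeq2 (-2.22, 0.00622). Those were the only 2 of 8 fits with 1 library left out that passed, and the edgeR adjusted p reached 0.307 in the others. Limma-voom did not make the call (adjusted p = 0.104).

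Eya1 (ENSMUSG00000025932.14, chromosome 1, 14168954 to 14310235, minus strand), the partner of Six2 and its relatives, overlapped between the lines. Its parental values were 20.9, 23.9, 30.5 and 19.6 CPM, and its mutant values 13.1, 32.2, 12.2 and 11.3 CPM. Mutant libraries 1, 3 and 4 lay below all parental libraries, and mutant library 2 lay above all of them. The log2 fold change was -0.47 ± 0.32 (95% interval -1.13 to 0.20; edgeR adjusted p = 0.625). Without mutant library 2 it was -0.97, with an edgeR adjusted p of 0.0979. The log2 ratio of Eya1 to Six2 was 0.78 ± 0.29 in parental and 2.44 ± 1.16 in mutant libraries, a difference of 1.66 with an exact permutation p of 0.0571 and 0.114 after adjustment. Mutant library 4 had 0 counts of Six2, so its ratio of 3.62 is set by the added 1 CPM. The difference was 1.98 with 0.5 CPM added, 1.31 with 2 CPM added and 1.27 without that library.

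**Figure D3:**
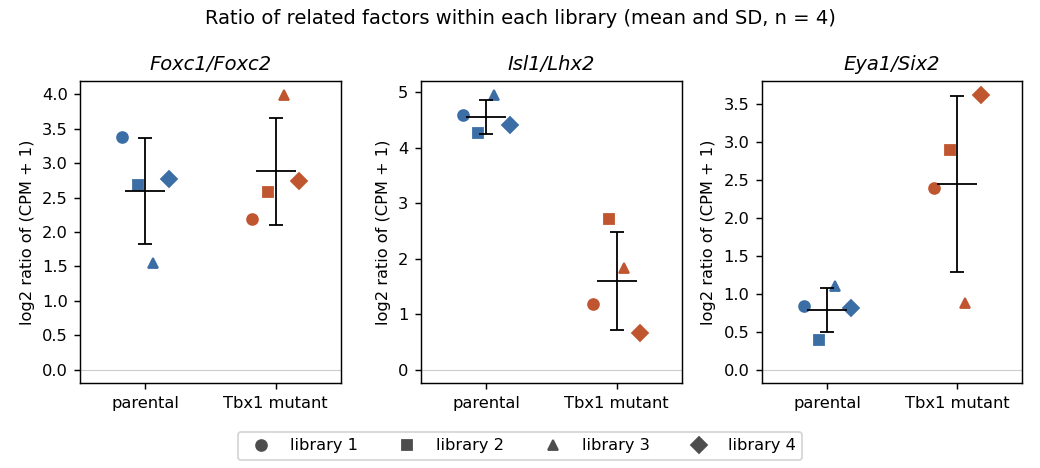
Log2 ratio of (CPM + 1) of 2 factors within each library (vertical axes) for 3 pairs; points are libraries and bars the mean and SD of 4 per line. The Isl1/Lhx2 ratio is 4.26 to 4.96 in parental and 0.67 to 2.72 in mutant libraries, whereas the ranges of the other pairs overlap.

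Tcf21 (ENSMUSG00000045680.8, chromosome 10, 22817281 to 22820174, minus strand) was present at 6 to 27 counts per library. Its values were 3.27, 4.66, 2.07 and 3.37 CPM in parental libraries 1 to 4, against 2.69, 1.31, 1.82 and 7.42 CPM in mutant libraries 1 to 4. The ranges overlapped fully, and the log2 fold change was -0.036 ± 0.70 with a 95% interval of -1.51 to 1.44 (edgeR adjusted p = 0.993). Without mutant library 4 the estimate was -0.77 (edgeR adjusted p = 0.756). The width of the interval limits what these counts can show, and no difference was detectable at this depth. Msc (ENSMUSG00000025930.6, chromosome 1, 14753346 to 14755992, minus strand) had 2, 1, 0 and 0 counts in the parental line and 18, 1, 2 and 0 counts in the mutant line. Only mutant library 1, at 3.02 CPM, was above the floor of 3 counts, and no difference was found (exact permutation p = 0.371). Msc and Eya1 lie 443 kb apart on the same strand of chromosome 1.

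Some factors varied together among the libraries of a line. Lhx2 and Tcf21 had the same order of libraries in the parental line (2, 4, 1, 3 from the highest) and in the mutant line (4, 1, 3, 2). Their deviations from the line means had a Pearson r of 0.99 over the 8 libraries and 0.98 without mutant library 4, while Tcf21 itself did not differ between the lines by more than its spread. Mutant library 2 was the highest mutant library for Eya1, Foxc1 and Foxc2. For Isl1 and Foxc1 the deviations had an r of 0.58, and 0.84 without mutant library 4. Other pairs had opposite deviations, with an r of -0.86 for Six2 and Lhx2, -0.82 for Six2 and Tcf21 and -0.66 for Isl1 and Six2. Without mutant library 4, where Six2 had 0 counts, these were -0.38, -0.22 and 0.037. Eya1 had an r of -0.65 with Tcf21 and -0.64 with Lhx2, and of -0.65 and -0.62 without that library. The pairs named were chosen by their r among the 21 pairs of tested factors. These correlations share libraries and depth, rest on few counts for Tcf21, and are given as a description.

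Over all 8 libraries, the genes with the profile most like each factor were sought among 9025 or 9026 other genes with a mean of at least 10 CPM, by Pearson r of log2 CPM. For Foxc1 they were Arid3b (r = 0.98), which fell by 0.77 on the log2 scale (edgeR adjusted p = 0.00165), and the aldolase gene Aldoc (r = 0.98), which fell by 1.70 (0.00713). For Six2 they were the lactate transporter gene Slc16a1 (r = 0.98), which fell by 0.97 (edgeR adjusted p = 0.00642), and Ddx55 (r = 0.98; log2 fold change -0.43, adjusted p = 0.359). The profile of Eya1 was most like that of Hoxb1, a homeobox gene of the posterior second heart field (r = 0.96), followed by Gm1673 (r = 0.96). Hoxb1 shared the high mutant library 2, at 36.4 CPM against 2.36 to 5.21 CPM in the other 3 mutant libraries and 23.1 to 50.7 CPM in the parental line. Its log2 fold change was -1.46 ± 0.59 (edgeR adjusted p = 0.313) and, without mutant library 2, -3.20 (0.000227). With any other single library left out, the Hoxb1 estimate was -1.60 to -1.12 and did not pass (edgeR adjusted p from 0.356 to 0.613). Foxc2 was most like Ptch1, the hedgehog receptor (r = 0.98), and Hoxb7 (r = 0.97). For Isl1 the genes were Fam189b (r = 0.97) and Zfp521 (r = 0.96), for Lhx2 Zc3hav1 (r = 0.99) and Zfand3 (r = 0.97), and for Tcf21 Gm4204 (r = 0.96) and Ap1g1 (r = 0.95). Between 13 (Tcf21) and 116 (Six2) genes had an r above 0.9, so these names are the top of longer lists, and the points share libraries and depth. This r also carries the difference between the lines, so the direction of change in these genes is partly set by their selection. For deviations from the line means, r was 0.90 (Arid3b) and 0.89 (Aldoc) with Foxc1, and 0.98 (Slc16a1) and 0.94 (Ddx55) with Six2.

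Relatives of Six2 and Eya1 were compared next. None of the 8 tested family members given here other than Six2 and Eya1 passed the edgeR threshold (0 of 8 called, also 0 with DESeq2 and limma-voom, and 2 at an unadjusted p under 0.05), and their median log2 fold change was -0.0066. Six4 was at 37.4 ± 9.30 and 36.6 ± 6.40 CPM, a log2 fold change of -0.036 ± 0.22. Eya2 was at 1.97 to 7.18 CPM in the parental and 7.63 to 16.8 CPM in the mutant line, without overlap but not passing (log2 fold change 1.15 ± 0.50, edgeR adjusted p = 0.360). Eya4 had a log2 fold change of 0.92 ± 0.55 (edgeR adjusted p = 0.556). Eya2 and Eya4 thus had estimates of opposite sign to that of Eya1, a difference that was not tested.

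Among forkhead genes of mesoderm other than Foxc1 and Foxc2, 1 of 7 tested was called (edgeR), and the median log2 fold change was -0.034. Foxp1, a repressor expressed in heart and vessels, rose by 0.50 ± 0.11 on the log2 scale (edgeR adjusted p = 0.0245), with means of 217 ± 21.5 CPM for parental and 307 ± 28.5 CPM for mutant cells. The call was lost without parental library 2, 3 or 4 or mutant library 3 or 4, where the adjusted p reached 0.143. Foxf2, Foxl1, Foxs1 and Foxh1 did not pass the low-count filter. In the LIM homeobox and cofactor list, 0 of 9 tested genes other than Isl1 and Lhx2 were called (edgeR, also 0 with DESeq2 and limma-voom, and 2 at an unadjusted p under 0.05), with a median log2 fold change of 0.25. Estimates were positive for 5 and negative for 4. Lhx1, the only LIM homeobox gene among them, was named after its values were seen. It had 7.53 to 10.5 CPM (parental) and 0.36 to 6.10 CPM (mutant), without overlap (log2 fold change -1.74 ± 0.66, edgeR adjusted p = 0.274). Ldb1 and Ldb2, adaptors through which LIM proteins form complexes, had log2 fold changes of 0.27 ± 0.14 and 0.38 ± 0.18 (edgeR adjusted p = 0.495 and 0.420). Isl2 and Lhx9 were among 10 genes of this list under the low-count filter.

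The bHLH list held the E proteins that pair with Tcf21 and Msc and the Id proteins that block such pairing. It also held the bHLH genes Tcf15, Tcf23, Tcf24 and Scx, of which Tcf23 and Tcf24 did not pass the low-count filter. Of 9 tested genes other than Tcf21, 1 was called (edgeR), and the median log2 fold change was 0.026. Id2 fell by 0.60 ± 0.12 on the log2 scale (edgeR adjusted p = 0.0124), from a parental mean of 600.2 ± 32.4 CPM to a mutant mean of 396 ± 74.5 CPM. Its libraries did not overlap, with the highest mutant library at 474 CPM and the lowest parental library at 572 CPM, and the call was lost without parental library 2 (edgeR adjusted p = 0.0692). The E protein genes Tcf3, Tcf4 and Tcf12 had log2 fold changes of 0.11 ± 0.12, 0.17 ± 0.097 and 0.34 ± 0.12, none of which passed (edgeR adjusted p = 0.771, 0.527 and 0.204).

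Signals and partners of the second heart field included called genes of both directions. Of 25 tested genes given here from that list, 5 were called, 1 higher and 4 lower including Tbx1 itself, and the median log2 fold change was -0.31. Bmp4, a signal of the outflow tract mesoderm, fell from 342 ± 58.5 to 127 ± 50.5 CPM (log2 fold change -1.42 ± 0.22, edgeR adjusted p = 0.00165). Parental Bmp4 was 272 to 413 CPM and mutant Bmp4 63.0 to 169.96 CPM, without overlap, and no alternative ended the call. Gata6, a zinc finger factor of heart and endoderm, rose by 0.72 ± 0.13 on the log2 scale (edgeR adjusted p = 0.00516).

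Fgf10 and Fgf8 encode growth factors made by second heart field cells. Fgf10 fell from 25.8 ± 6.02 to 11.1 ± 2.52 CPM (edgeR adjusted p = 0.0262), a call lost in 5 of the 8 fits with 1 library removed, namely parental 1 or 3 or mutant 1, 2 or 3, where the adjusted p reached 0.146. Osr1, a zinc finger factor of lateral mesoderm outside the rule for named genes and named after its values were seen, also fell (-1.85 ± 0.43, edgeR adjusted p = 0.0372), a call lost with library size as the only scaling and without parental library 2, 3 or 4 or mutant library 1, 3 or 4 (up to 0.126). Without mutant library 2 the Osr1 estimate was -2.69 (edgeR adjusted p = 0.00051). Fgf8 averaged 12.6 ± 5.61 CPM in the parental line and 4.74 ± 2.20 CPM in the mutant line, a log2 fold change of -1.44 ± 0.47 that did not pass (edgeR adjusted p = 0.175). Nkx2-5 and Mef2c, cardiac factors that act downstream of Isl1, had log2 fold changes of -1.04 ± 0.72 and -0.63 ± 0.26 (edgeR adjusted p = 0.632 and 0.331). Both estimates were -0.24 without parental library 1, which had 24.5 CPM of Nkx2-5 against 1.90 to 10.2 CPM in the other parental libraries. Hand2 had 0.40 ± 0.098 (edgeR adjusted p = 0.0513), and it was called with DESeq2 (0.00277), limma-voom (0.0242) and library size as the only scaling (0.0412). Of 8 genes given here from the branchiomeric muscle list, 3 were tested and 0 were called by edgeR, DESeq2 or limma-voom, with 2 at an unadjusted p under 0.05. The muscle determination genes Myf5, Myod1, Myog and Myf6 were under the low-count filter, and Myod1 and Myf6 had 0 counts in all 8 libraries, where the floor of 3 counts is 0.48 to 0.82 CPM.

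**Figure D4:**
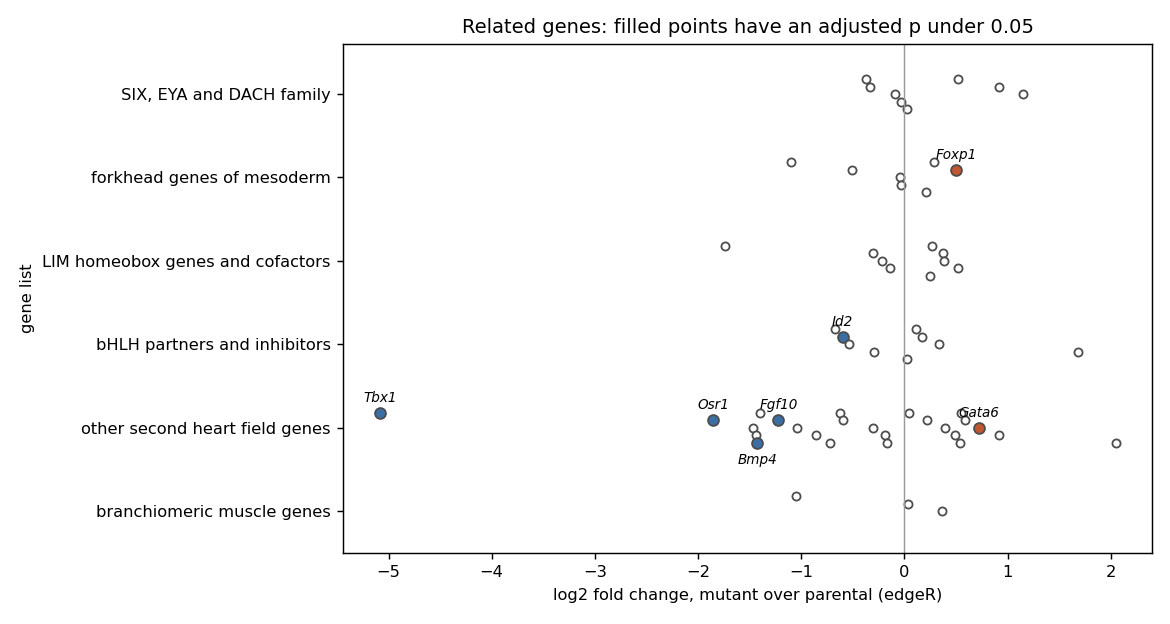
Log2 fold change of mutant over parental (horizontal axis) for tested genes related to the 8 factors, which are left out, grouped by list; filled points have an edgeR adjusted p under 0.05 (orange higher, blue lower). Called genes include Gata6 at 0.72 and Foxp1 at 0.50 among those higher and Bmp4 at -1.42 and Id2 at -0.60 among those lower.

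Genes lying near the factors on the chromosome were examined after the values above were known. Of 15 tested genes within 250 kb of a member, 0 were called by edgeR or limma-voom, 1 had an unadjusted p under 0.05 and 1 was called by DESeq2, and the 3 named here were chosen after their values were seen. Next to Lhx2, Dennd1a, a regulator of membrane traffic 51.9 kb away on the opposite strand, averaged 13.4 ± 2.27 CPM in the parental and 25.9 ± 8.96 CPM in the mutant line (log2 fold change 0.94 ± 0.27, edgeR adjusted p = 0.107, DESeq2 adjusted p = 0.0426). Gmds, 7.10 kb from Foxc1, had a log2 fold change of 0.56 ± 0.39 (edgeR adjusted p = 0.627), opposite in sign to Foxc1. The forkhead gene Foxf1, 28.0 kb from Foxc2, had -0.50 ± 0.24 (edgeR adjusted p = 0.419), the same sign as Foxc2.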

How the data were processed

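The deposited table holds raw counts, 1 column for each library, neither normalized nor pooled by the authors. Per the submitters' processing notes STAR, featureCounts and build mm10 were used, with no versions. The column names, per the file headers, point to coordinate-sorted STAR alignments, and the table's name states forward-strand counting. The annotation, filters and any removal of duplicate reads are not given in the sources used here. If the counting was stranded as named, the antisense genes that overlap Eya1, Tcf21, Msc and Lhx2 do not share their reads. On the strand of the factor itself, Gm37444 lies within the span of Eya1 (0 to 7 counts per library) and Gm20388 overlaps that of Foxc2 (0 counts), each with 0 exon bases shared in GENCODE M21.

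Of 55487 gene identifiers, 55141 were given a symbol from GENCODE M21 (GRCm38), after dropping the version where needed. Groups and replicate numbers came from the sample titles. Libraries held 3803561 to 6293907 counts. Genes were filtered with filterByExpr, scaled by TMM and compared with edgeR 4.0.16 (glmQLFit and glmQLFTest, R 4.3.3) in a model with an intercept and the line, fitted to 13280 genes. P-values were two-sided and Benjamini-Hochberg adjusted over all of them, with a threshold of 0.05. Standard errors were derived from the F statistic, and 95% intervals from the t distribution. The fit was checked on data with known changes. Ratios within a library were compared by two-sided exact permutation over 70 assignments of the libraries. The floor was set at 3 counts, and it covers counting error only, since reads without molecular identifiers are not independent molecules.

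Named genes were the 8 factors, Tbx1, called genes of the lists (up to 4 per list, by smallest p), 15 relatives or partners fixed by name, and the 2 most similar profiles per tested factor. The members, lists and motifs were chosen with earlier results of these data known. Alternatives were other scalings and filters, DESeq2 1.42.0, limma-voom (limma 3.58.1), the replicate number as a block and leaving out each library. No unmapped columns were present. A few listed genes and 1 ratio are not reported here. Promoter windows are RefSeq's, with the bases after the start left out.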

Additional observations from a re-analysis of the deposited data

Results flagged for a closer look

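In 24 groups of 4 libraries (8 factors, Tbx1 and 3 ratios, in 2 lines), 2 had a single library far from the other 3, where chance gives about 1 in 20. The mutant Eya1 values had a gap of 0.913 of their whole range, because mutant library 2 was at 32.2 CPM and the other 3 were between 11.3 and 13.1 CPM. The mutant Msc values had a gap of 0.880 of their range, with 18 counts in mutant library 1 and 0 to 2 counts in the others. Mutant library 2 was not the library that stood apart over all genes, and the part of culture or library quality in either value was not tested.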

How the results depend on the processing

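Alternative scalings and a mean of at least 10 counts changed no call among the 7 tested factors. With no filter beyond 1 count, DESeq2 and limma-voom, Isl1 passed at -0.68, -0.66 and -0.77. Six2 passed at -2.21 with no filter and -2.22 with DESeq2, and Lhx2 did not pass with limma-voom (2.59). The counts of called factors (4 with no filter and 4 with DESeq2) included 3 lower ones in both, and limma-voom called 0 higher and 2 lower. Over all genes, no filter called 439 (208 higher, 231 lower), DESeq2 399 (203 and 196), limma-voom 140 lower and library size alone 57 lower. The other listed genes called numbered 3 (bHLH), 10 (second heart field) and 1 (branchiomeric) with no filter, and 3 bHLH genes with DESeq2. The cause of these changes was not tested.

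With 1 library left out, log2 fold changes ranged from -0.86 to -0.55 (Isl1), -2.91 to -1.83 (Six2), -0.77 to 0.22 (Tcf21, positive without parental 2 or mutant 1, 2 or 3), 2.19 to 3.21 (Lhx2), -1.22 to -0.96 (Foxc1) and -0.21 to 0.065 (Six4). Called genes ranged from 103 (without parental 2) to 235, higher ones from 57 to 115, lower ones from 39 to 120, called factors from 1 to 4, and lower factors from 0 to 3. The lists ranged from 0 to 1 (forkhead, bHLH, branchiomeric) and 3 to 5 (second heart field). Ratio differences ranged from -0.087 to 0.55 (Foxc1/Foxc2, negative without parental 3 or mutant 3) and 1.27 to 2.18 (Eya1/Six2), and the latter reached an exact permutation p of 0.0286 without mutant library 3.

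The labels do not say whether replicate numbers pair the libraries. Deviations of same-numbered libraries correlated at 0.10, 0.015, -0.033 and 0.028, and not every library correlated best with its own number. Correlations over all genes cannot exclude a pairing that moves fewer genes, and the main fit used no pairs. With the number as a replicate block, 234 genes passed, 172 of them among the 188, 3 factors (2 lower) passed with Six2 at -2.56, and 3 bHLH, 8 second heart field and 1 branchiomeric gene passed. The blocked Isl1/Lhx2 difference was -2.95. Flipping signs over 4 pairs allows no exact permutation p below the 0.125 that it had. Among 26 other named genes and Tbx1, no called gene changed sign. DESeq2 gave no adjusted p for Tcf21, Tbx1 or Hoxb1. Depth limited Msc, the parental Lhx2 values, the mutant Foxc2 and Six2 values and both Tcf21 groups most. Counting CVs were 28.6% (Lhx2), 28.0% (Foxc2), 25.8% (Six2) and 23.4% and 26.0% (Tcf21).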
